A study of Mus musculus with 27 samples.

Results

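Whole hearts of C57Bl/6 mice aged 1.5 years were compared with whole hearts of C57Bl/6 mice taken on postnatal day 1. The comparison covered all genes placed on the autosomes or the mitochondrial genome, which were 21196 of the 22855 genes in the count table of the deposited heart RNA-Seq libraries. Another 862 genes on chromosomes X and Y were left out, as were 797 genes whose symbol had no chromosome in the annotation. Of the 21196 genes, 17048 passed the filter on low counts and were tested, and 4148 did not. Each age had 3 libraries of polyA RNA, 6 of the 27 samples of the series, which compared hearts and sorted PDGFRα+ cardiac fibroblasts at 5 ages to ask how cardiac gene expression changes over life. The mice were given no treatment and carried no transgene according to the labels, and the labels gave no sex. The libraries were labelled as separate samples, and nothing in the labels said whether a neonatal library held 1 heart or a pool. All p-values therefore measure the spread between these libraries.

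The mouse heart is still growing by cell division at birth. In the following weeks most cardiac muscle cells leave the cell cycle, enlarge, exchange fetal for adult isoforms of contractile proteins, and move from glucose and lactate toward fatty acids as the main fuel. Over the same period fibroblasts lay down the collagen network, and the resident immune cells of the heart expand. A comparison of a 1.5-year-old heart with a newborn heart therefore spans both this maturation and later adult life, and the samples at 4 weeks, 14 weeks and 1 year were used to see when a difference was already present.

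The libraries held 57651138 to 67969823 counts at 1.5 years and 65549640 to 66186366 at postnatal day 1. All levels below are CPM (counts relative to the library total), scaled by the trimmed mean of M-values (TMM). Fold changes are log2 values of 1.5 years over postnatal day 1, from edgeR's quasi-likelihood test with Benjamini-Hochberg adjustment over all genes tested. An SE beside a fold change was worked back from the F statistic of that test and was not estimated by the fit. It is only a rough guide to the spread, above all for genes with almost no counts at one of the ages. In 1.5-year replicate 3 the deviation from the other libraries of its age was the largest, with correlations of log2 CPM of 0.836 and 0.837 to replicates 1 and 2 against 0.886 between those 2, and 0.942 to 0.962 among the day 1 libraries. Markers of cardiac muscle were abundant at both ages, their summed level being 23040 to 27960 CPM at day 1 and 30890 to 37310 CPM at 1.5 years. The Y-linked gene Ddx3y lay at 4.58, 26.6 and 16.3 CPM in the day 1 libraries and at 0.0368, 0.397 and 0.0658 CPM at 1.5 years, whereas Xist, transcribed from the inactive X chromosome, was present in all 6. Xist had 296, 124 and 334 CPM at day 1 and 129, 54.7 and 34.8 CPM at 1.5 years. Each day 1 library thus held both Xist and Ddx3y, and whether it pooled hearts of males and females was not tested. Sex and age therefore cannot be told apart in these libraries. Atrial genes also varied between libraries. Myl7, the atrial regulatory light chain, was found at 107, 88.7 and 131 CPM at postnatal day 1 and 3.07, 48.9 and 5.07 CPM at 1.5 years, and replicate 2 was far above the other libraries at 1.5 years. Whether the amount of atrial tissue in each sample took part in the results was not tested. In bulk tissue, fewer cells of a type and less RNA per cell cannot be told apart.

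Expression differed widely between the ages. Of the 17048 genes tested, 2727 (16%) were higher and 2781 (16.3%) were lower at 1.5 years, 32.3% in all, and most called genes coded for protein (2592 of those higher and 2630 of those lower). The change was at least 2-fold for 1783 of the higher and 1911 of the lower genes, and at least 8-fold for 319 and 505. The 3 samples of one age did not overlap the 3 of the other for 7818 genes (45.9%). The split between higher and lower depended on the scaling. Scaled by library size alone, 1336 genes (7.84%) were higher and 5692 (33.4%) lower, so that higher genes were 19% of the called genes instead of 49.5%, and over all genes tested the median log2 value moved from -0.14 to -0.74. A few very abundant transcripts took up more of the counts at the later age. The 10 most counted nuclear genes of each library took up 8.17% ± 0.64 of counts at postnatal day 1 and 12% ± 1.86 at 1.5 years (SD, n = 3), and the mitochondrial genome took up 12.2% ± 1.44 and 21.2% ± 4.55. The lowest 1.5-year library for the mitochondrial share (18.5%) exceeded the highest day 1 library (13.7%), and the exact two-sided permutation test gave p = 0.1, the smallest value that 3 against 3 samples allow. The mitochondrial share was 14.9% to 26.7% at 4 weeks, 27.7% to 34.5% at 14 weeks and 29.2% to 33.2% at 1 year. Every library at 14 weeks and 1 year thus lay above the highest 1.5-year library (26.5%).

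**Figure D1:**
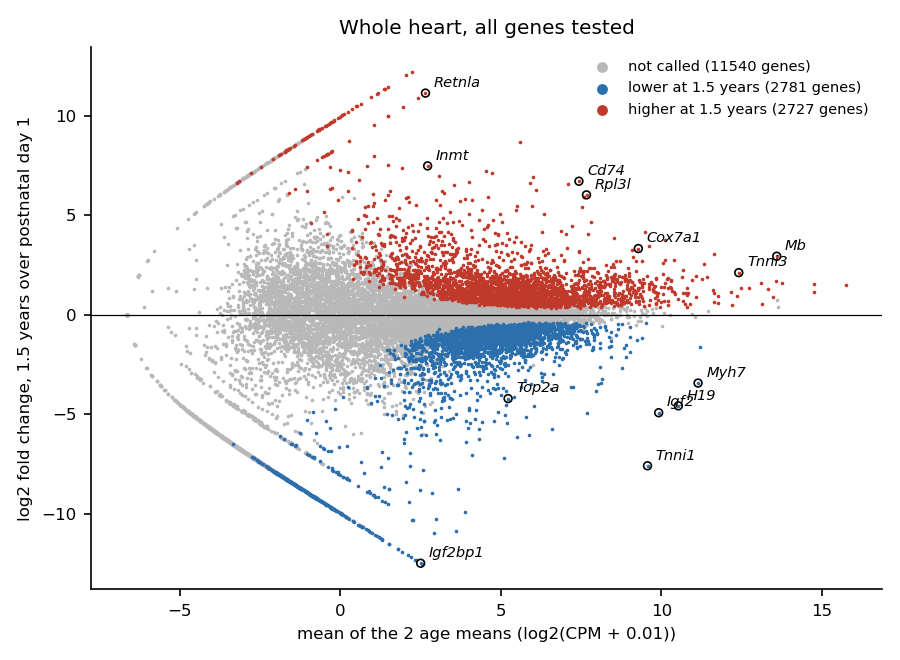
Log2 fold change of each of the 17048 genes tested (y axis, 1.5 years over postnatal day 1) against its mean level over the 2 ages (x axis, log2 of CPM plus 0.01), with the 2727 genes called higher in red, the 2781 called lower in blue and the others in gray. The lines of points at the lower left and upper left are genes with almost no counts at one of the ages, and the ringed genes are described in the text.

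The direction of change followed transcript length. Across 12848 genes with a mean of at least 1 CPM, Spearman's rho between log2 fold change and transcript length was -0.40, and it was -0.50 over the 8284 genes with at least 10 CPM (genes are not independent replicates, and no p is given). In the shortest decile of genes, 57 to 1189 bases long, the median log2 fold change was 0.84, and 548 genes were higher and 37 lower. In the longest decile, from 6708 bases, the median was -0.86, and 81 genes were higher and 586 lower. The trend differed in size between the 1.5-year hearts. Relative to the day 1 mean, the longest decile had a median log2 difference of -0.51 in replicate 1, -0.93 in replicate 2 and -1.28 in replicate 3. The coefficient was -0.34 without replicate 3 and -0.44 without replicate 1. The trend thus differed between libraries of one age as well as between ages, and its origin was not tested.

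A second fit took this trend out of each library with a smooth offset on transcript length, after which the coefficient was -0.00. It called 2400 genes higher (14.1%) and 2385 lower (14%). Of the genes higher in the first fit, 72.5% were still called higher, 69.0% of the lower genes were still called lower, and 12 genes were called in the opposite direction. The results below give the length offset beside a list where its number of higher or lower members moved by more than 1.5 times, and beside a named gene where it changed the call.

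**Figure D2:**
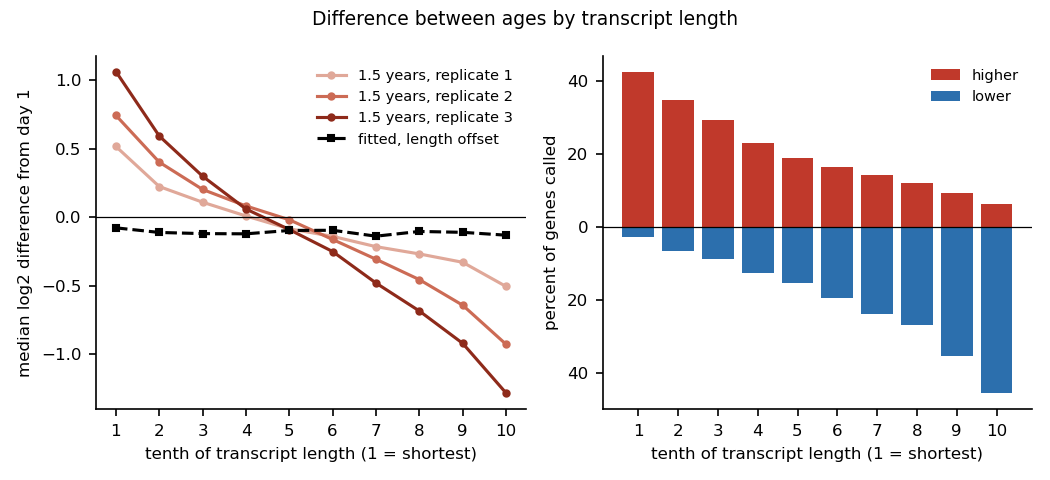
Left, median log2 difference from the postnatal day 1 mean in each decile of genes by transcript length (x axis, 1 is the shortest) for each of the 3 libraries at 1.5 years, and the median fitted log2 fold change after the length offset (dashed). Right, percent of the genes of each decile called higher (up) or lower (down) at 1.5 years; higher calls fall from 42.6% in the shortest decile to 6.30% in the longest, while lower calls rise from 2.88% to 45.6%.

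Gene lists drawn from known cardiac biology lay on both sides of the median of all genes. Lists of mitochondrial, antigen presentation and macrophage genes lay above the median of all genes tested (-0.14), and lists of cell cycle, imprinted and fetal RNA-binding genes lay below it. Each list is given with its members tested, the number called in each direction, and its median log2 fold change. These counts also depended on the scaling. With library size only, 15 fatty acid genes were higher and 11 lower. The numbers were 8 and 9 for glycolysis and 9 and 9 for ion channels. They were 36 and 2 for mitochondrial and 5 and 4 for cytosolic ribosomal proteins. Nuclear oxidative phosphorylation genes had 61 and 2, antigen presentation genes 18 and 0, and cell cycle genes 0 and 52.

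**Figure D3:**
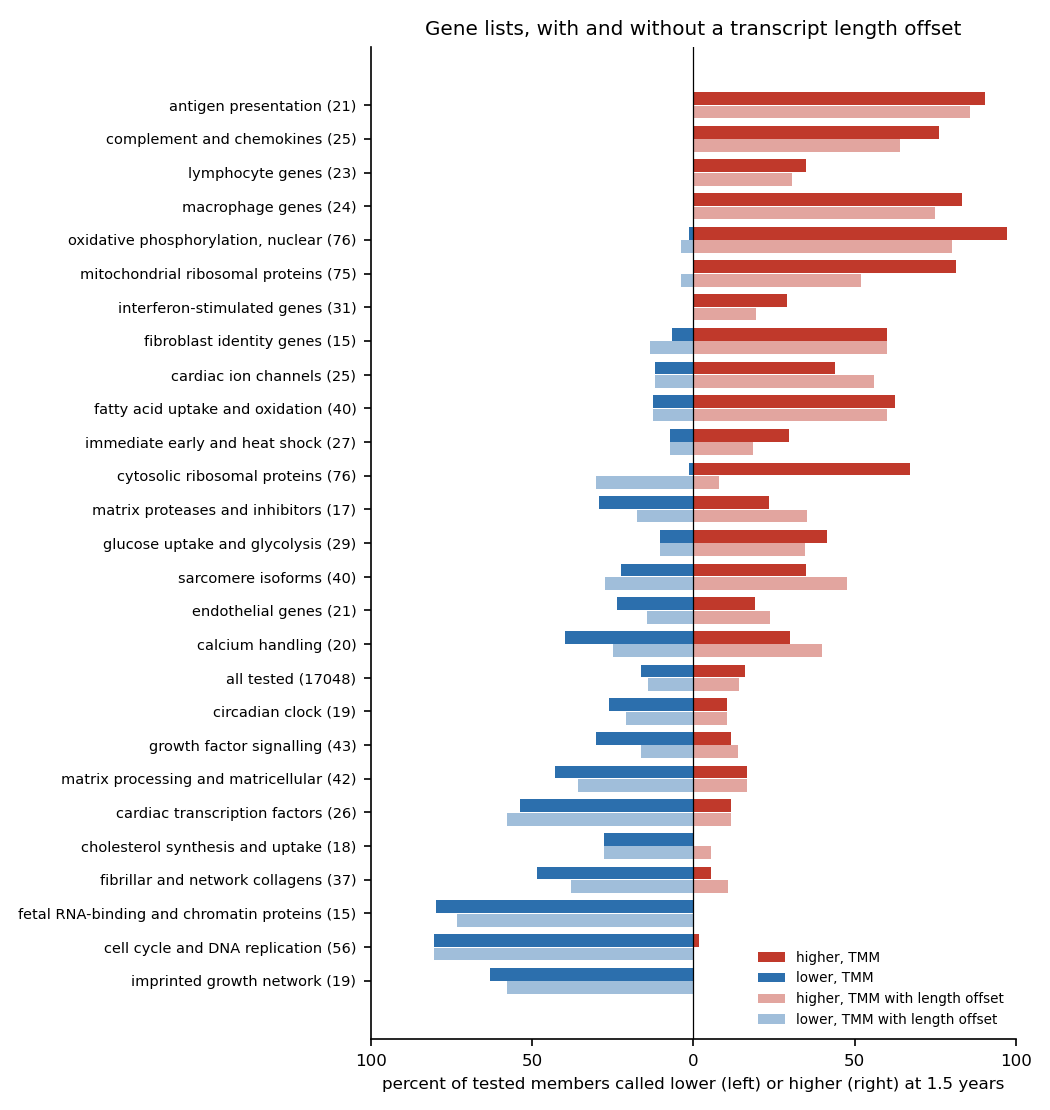
Percent of the tested members of each gene list called higher (right, red) or lower (left, blue) at 1.5 years, in the first fit (dark bars) and with the length offset (light bars). The number of members tested stands in brackets and lists are ordered by their median log2 fold change; the cytosolic ribosomal proteins are the list whose calls turned from mostly higher (51 of 76) to mostly lower (23 of 76).

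The contractile apparatus had exchanged several fetal isoforms for adult ones. Of 40 sarcomere genes tested, 14 were higher and 9 lower, and their median log2 fold change was 0.08. The clearest exchange was in troponin I, the inhibitory subunit of the thin filament. The slow skeletal form Tnni1 (chr1:135779434-135810989, plus strand, GRCm38) had 1559, 1524 and 1459.6 CPM at postnatal day 1 and 17.6, 2.88 and 3.21 CPM at 1.5 years, while the cardiac form Tnni3 (chr7:4518305-4524229, minus strand) had 2348, 1796 and 1976 CPM at postnatal day 1 and 6625, 8002 and 12024 CPM at 1.5 years. Neither gene overlapped between the ages. Tnni1 fell (log2 fold change -7.59 ± 0.95 (SE), adjusted p = 1.54e-05) and Tnni3 rose (log2 fold change 2.12 ± 0.21 (SE), adjusted p = 1.75e-06), with 1.5-year replicate 1 the highest of its age for Tnni1. Per kilobase of transcript, the mean level of Tnni1 was 1317 and that of Tnni3 2237 RPKM (CPM divided by transcript length in kilobases) at day 1, and they were 6.86 and 9741 RPKM at 1.5 years.

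Myosin heavy chain showed a fall of the fetal form without a called rise of the adult form. Myh7, the slow β-myosin heavy chain (chr14:54970684-54994626, minus strand), had 4499, 5492 and 2457 CPM at postnatal day 1 and 432, 488 and 236 CPM at 1.5 years, with no overlap (log2 fold change -3.43 ± 0.52 (SE), adjusted p = 9.78e-05). Myh6, the fast α-myosin heavy chain, had 13164, 10014 and 10295 CPM at postnatal day 1 and 14079, 14164 and 15169 CPM at 1.5 years, a difference that did not pass the test (log2 fold change 0.37 ± 0.16 (SE), adjusted p = 0.09) but did by DESeq2 (0.41, adjusted p = 0.0263) and with the length offset (log2 fold change 0.93, adjusted p = 0.000559). Its mean was higher at each age in between, 30035 CPM at 4 weeks, 22459 CPM at 14 weeks and 18235 CPM at 1 year. Myh7 was lowest at 4 weeks (27.1 CPM) and its 1.5-year mean lay above those at 4 weeks, 14 weeks and 1 year. The light chains Myl2 (ventricular, 6763 CPM at postnatal day 1 and 20770 CPM at 1.5 years) and Myl3 (ventricular and slow skeletal, 3784 CPM at postnatal day 1 and 9814 CPM at 1.5 years) rose, and the atrial and fetal light chain Myl4 (178, 204 and 146 CPM at postnatal day 1 and 7.92, 42.1 and 16.8 CPM at 1.5 years; log2 fold change -2.98, adjusted p = 0.0297, lost without 1.5-year replicate 1, 1.5-year replicate 3 or day 1 replicates 1 or 2, adjusted p = 0.0587 to 0.0881) and the smooth muscle form Myl9 (465 CPM at postnatal day 1 and 32.9 CPM at 1.5 years; log2 fold change -3.82, adjusted p = 6.04e-08) fell. Among the actins, cardiac Actc1 (log2 fold change 0.90, adjusted p = 0.000585, with no call by exon union length, 0.21, adjusted p = 0.179, or library size only, 0.30, adjusted p = 0.139) and skeletal Acta1 (51.5, 64.2 and 44.8 CPM at postnatal day 1 and 401, 317 and 390.4 CPM at 1.5 years; log2 fold change 2.79, adjusted p = 1.23e-05) rose and smooth muscle Acta2 fell (log2 fold change -2.67, adjusted p = 2.05e-07). Tcap, which caps titin at the Z disc, and Xirp2, an actin-binding protein of the intercalated disc, also rose (2.93 and 4.47). With the length offset, 19 of the 40 sarcomere genes were higher and 11 lower, and calls of several members depended on transcript length. Titin (Ttn), whose transcript is among the longest of the genome, had 1085, 1560.1 and 1033 CPM at postnatal day 1 and 1094, 805 and 621 CPM at 1.5 years, overlapping groups and no call (log2 fold change -0.55, adjusted p = 0.197), but was called higher with the length offset (0.81, adjusted p = 0.000221). Tnnt2, cardiac troponin T, was called higher in the first fit (log2 fold change 0.53, adjusted p = 0.0274) and neither with the offset (-0.20) nor without 1.5-year replicate 3 (0.25, adjusted p = 0.176), day 1 replicate 2 (adjusted p = 0.0741) or day 1 replicate 3 (adjusted p = 0.0791).

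Genes of calcium cycling divided by membrane. In the sarcoplasmic reticulum, the intracellular calcium store, 6 of 11 genes tested were higher and 1 was lower. Atp2a2, the calcium pump that refills it, had 2981, 2807 and 2914 CPM at postnatal day 1 and 6950.1, 6785 and 5256 CPM at 1.5 years (log2 fold change 1.13 ± 0.14 (SE), adjusted p = 1.74e-05). Its inhibitor Pln rose to a similar extent (2444, 2197 and 2589.7 CPM at postnatal day 1 and 4852, 4337 and 4604 CPM at 1.5 years; log2 fold change 0.93, adjusted p = 4.17e-05), and the calcium-binding proteins Hrc (105 CPM at postnatal day 1 and 988 CPM at 1.5 years; 3.24) and S100a1 (156 CPM at postnatal day 1 and 1036 CPM at 1.5 years; 2.73) rose further. The fall was in Casq1, the skeletal calsequestrin (log2 fold change -2.36, adjusted p = 0.000206). At the plasma membrane, 7 of 9 genes were lower and 0 higher at this threshold, and 4 were lower and 1 higher with the length offset. The sodium-calcium exchanger Slc8a1 had 186, 237 and 181 CPM at postnatal day 1 and 77.1, 43.1 and 12.2 CPM at 1.5 years, with no overlap (log2 fold change -2.19 ± 0.45 (SE), adjusted p = 0.0013), and replicate 3 was the lowest of the 1.5-year libraries. The T-type channel genes Cacna1g (log2 fold change -1.92, adjusted p = 0.000327) and Cacna1h (log2 fold change -3.30, adjusted p = 0.0155), which carry the pacemaker and fetal calcium current, fell as well. Ryr2, the release channel, was not called (log2 fold change -0.43, adjusted p = 0.135), was called higher with the offset (0.57), and was called lower with library size only (-1.03).

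Of 25 cardiac ion channel genes, 11 were higher and 3 lower, with a median of 0.72, and 5 were lower without 1.5-year replicate 1. Scn4b, a sodium channel β subunit, had 0.949, 0.0103 and 0.172 CPM at postnatal day 1 and 62.1, 56.4 and 39.0 CPM at 1.5 years (log2 fold change 7.13 ± 0.72 (SE), adjusted p = 1.65e-06), with no overlap. Of the 17 potassium channel genes, 8 were higher and 2 lower. Kcnip2, the accessory subunit of the fast transient outward current, rose from 77.0 to 169 CPM (log2 fold change 1.14, adjusted p = 8.27e-05). Kcne1 and Kcnh2, subunits of the slow and rapid delayed rectifier currents, fell from 112 to 10.2 CPM (log2 fold change -3.45, adjusted p = 0.000121) and from 133 to 66.9 CPM (log2 fold change -0.99, adjusted p = 4.81e-05). Of the cardiac hormones, Nppa (atrial natriuretic peptide) fell (1264, 699 and 364 CPM at postnatal day 1 and 132, 214 and 198 CPM at 1.5 years; log2 fold change -2.10 ± 0.56 (SE), adjusted p = 0.00892), and Nppb (B-type) was called higher (431, 191 and 163 CPM at postnatal day 1 and 599, 633 and 440.4 CPM at 1.5 years; log2 fold change 1.09 ± 0.35 (SE), adjusted p = 0.0248) but not with the length offset (0.27). The fall of Nppa was not called without day 1 replicate 1 (log2 fold change -1.49, adjusted p = 0.0654), and the call of Nppb was lost without any one of 4 libraries, 1.5-year replicates 1 and 2 and day 1 replicates 2 and 3 (adjusted p = 0.0505 to 0.0902). For both hormones day 1 replicate 1 was well above the other day 1 libraries.

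Genes of cell division formed the list with the most members that fell. Of 56 cell cycle and DNA replication genes, 45 were lower and 1 was higher at 1.5 years, the median being -2.78, and 45 were lower with the length offset. In mitosis and cytokinesis 20 of 21 genes fell, in the cyclins and kinases 13 of 17, and in DNA replication 12 of 18. Mki67, a marker of cycling cells, had 61.0, 82.8 and 70.2 CPM at postnatal day 1 and 2.00, 2.75 and 0.214 CPM at 1.5 years (log2 fold change -5.43 ± 0.72 (SE), adjusted p = 2.63e-05). Top2a, the topoisomerase that separates sister chromosomes, had 49.7, 72.0 and 91.6 CPM at postnatal day 1 and 4.84, 5.40 and 1.28 CPM at 1.5 years (log2 fold change -4.21 ± 0.48 (SE), adjusted p = 5.79e-06), and Cdk1, the kinase that drives entry into mitosis, had 25.5, 30.4 and 36.5 CPM at postnatal day 1 and 1.45, 1.68 and 0.428 CPM at 1.5 years (log2 fold change -4.70 ± 0.77 (SE), adjusted p = 0.000191). Each gene kept a low level at 1.5 years, and replicate 3 was the lowest library of that age for all 3. Anln, needed for cytokinesis, had 31.5, 31.1 and 45.7 CPM at postnatal day 1 and 2.78, 2.72 and 0.0329 CPM at 1.5 years (log2 fold change -4.29, adjusted p = 0.00189). The exception was Ung (12.9 CPM at postnatal day 1 and 26.4 CPM at 1.5 years; log2 fold change 1.03, adjusted p = 0.0151), which removes uracil from DNA, and its call was lost with the length offset (adjusted p = 0.0586) and without 1.5-year replicate 3 or day 1 replicate 2 (adjusted p = 0.0783 and 0.0606). Cyclin D1 (Ccnd1) was not called (46.3, 87.7 and 91.8 CPM at postnatal day 1 and 98.7, 139.8 and 78.2 CPM at 1.5 years; log2 fold change 0.49, adjusted p = 0.137), nor was Pcna, the sliding clamp of replication (40.8 CPM at postnatal day 1 and 29.2 CPM at 1.5 years; log2 fold change -0.49, adjusted p = 0.122), which was called lower with the length offset (-0.99).

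The promoters of these genes are shown because they fell together. The 150 bases before the RefSeq transcription start (GRCm38.p6) are given for 3 of them, chosen after the search as holding both motifs, with matches in either orientation to the cell cycle homology region core (TTTGAA) and to the CCAAT box in capitals. Those of Cdk1 (chr10:69352913-69353062, minus strand), Top2a (chr11:99024190-99024339, minus strand) and Mki67 (chr7:135716380-135716529, minus strand) read as follows, 5′ to 3′ along each gene.
Cdk1: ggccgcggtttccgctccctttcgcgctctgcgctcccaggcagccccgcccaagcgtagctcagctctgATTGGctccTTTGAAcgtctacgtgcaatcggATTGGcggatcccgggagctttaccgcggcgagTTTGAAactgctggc
Top2a: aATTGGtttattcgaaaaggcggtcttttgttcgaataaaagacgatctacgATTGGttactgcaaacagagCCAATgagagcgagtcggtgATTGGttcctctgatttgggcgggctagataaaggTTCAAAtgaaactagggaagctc
Mki67: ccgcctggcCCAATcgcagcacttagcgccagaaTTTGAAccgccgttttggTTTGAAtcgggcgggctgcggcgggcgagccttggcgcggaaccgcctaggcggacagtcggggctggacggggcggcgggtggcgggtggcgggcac
In windows from 250 bases before to 50 bases after the start, TTTGAA on either strand was found in 12 of the 16 mitosis and cytokinesis genes that fell and had a RefSeq entry (75%), in 17 of 34 of all cell cycle genes that fell, and in 20.2% of 27025 promoters. CCAAT was found in 12 of the 16, in 25 of the 34 and in 41.1% of all promoters. These letters are a description of the windows and not evidence of binding.

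Of the cell cycle inhibitors, Cdkn1c, an imprinted inhibitor of fetal tissue, fell (127, 114 and 73.6 CPM at postnatal day 1 and 33.6, 24.9 and 39.4 CPM at 1.5 years; log2 fold change -1.68, adjusted p = 0.000448). Cdkn2a, which codes for p16 and p19 and is known to rise in aged tissues, had at most 1 count in any day 1 library and 1.93, 0 and 2.5 CPM at 1.5 years. It was called higher (log2 fold change 8.09, adjusted p = 0.0484), but 1 of the 3 old libraries was at 0, the groups overlapped, and it was not called with the length offset or without any library other than 1.5-year replicate 2. Cdkn1a (p21) was not called (log2 fold change 0.63, adjusted p = 0.136).

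The imprinted growth network, a set of coexpressed genes that are active in fetal tissue and shut down after birth, was lower at 1.5 years in 12 of 19 genes tested and higher in 0, with a median of -3.21. Igf2, the fetal growth factor, had 1735, 2235 and 1654 CPM at postnatal day 1 and 58.1, 56.7 and 71.0 CPM at 1.5 years (log2 fold change -4.92 ± 0.24 (SE), adjusted p = 1.42e-09). H19, the noncoding transcript of the same locus on chromosome 7, had 2922, 3336 and 2271 CPM at postnatal day 1 and 130.2, 98.0 and 129.7 CPM at 1.5 years (log2 fold change -4.57 ± 0.27 (SE), adjusted p = 6.41e-09). The groups were far apart for both genes compared with the spread within each age. Dlk1 (90.3 to 1.26 CPM), Mest (398 to 12.8 CPM), Plagl1 (191 to 3.61 CPM) and Peg3 (125 to 5.19 CPM) fell by 71.7-, 31.1-, 53.1- and 24.1-fold. The clearance receptor for IGF2, Igf2r, fell as well (470.3 to 76.5 CPM; log2 fold change -2.62, adjusted p = 7.23e-07). Among the 7 genes without a call were Ndn (log2 fold change -0.72, adjusted p = 0.2) and Impact (log2 fold change 0.41, adjusted p = 0.411).

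Fetal RNA-binding and chromatin proteins were lower in 12 of 15 genes, with a median of -2.68. Igf2bp1 (chr11:95957163-96005940, minus strand), which binds and stabilizes Igf2 mRNA among others, had 10.9, 12.4 and 10.7 CPM at postnatal day 1 and 0, 0 and 0 CPM at 1.5 years, at least 223-fold lower when 3 counts per library are taken as the floor (adjusted p = 0.00113). Its relative Igf2bp3 had 31.3, 32.0 and 24.6 CPM at postnatal day 1 and 0.0184, 0.0635 and 0 CPM at 1.5 years (log2 fold change -9.94 ± 1.44 (SE), adjusted p = 6.15e-05), and Igf2bp2 remained measurable (39.5, 34.3 and 39.9 CPM at postnatal day 1 and 5.50, 2.75 and 9.50 CPM at 1.5 years; log2 fold change -2.68, adjusted p = 0.0111). Lin28b and Hmga2, of the pathway that the let-7 microRNAs repress, were at 0 in all 3 libraries at 1.5 years, at least 35.4-fold and 33.6-fold lower. The maintenance methyltransferase Dnmt1 fell less (log2 fold change -1.05, adjusted p = 0.0171) and overlapped between ages, its call being lost with the length offset (-0.50) and without 1.5-year replicates 1 or 3 or day 1 replicates 2 or 3 (adjusted p = 0.0603 to 0.104), and the polycomb methyltransferase Ezh2 fell from 24.2 to 5.81 CPM (log2 fold change -2.06, adjusted p = 0.00107). In the IGF system, 7 of 11 genes were lower and 3 higher. The receptor Igf1r (63.8, 74.1 and 40.8 CPM at postnatal day 1 and 15.8, 12 and 5.48 CPM at 1.5 years; log2 fold change -2.43, adjusted p = 8.76e-05) and its docking protein Irs2 (log2 fold change -2.14, adjusted p = 1.59e-05) fell, and the binding protein Igfbp6 rose (12.7, 6.63 and 6.72 CPM at postnatal day 1 and 58.1, 47.1 and 69.1 CPM at 1.5 years; log2 fold change 2.74, adjusted p = 4.94e-05). The number of lower IGF genes was 4 with the length offset and 4 without day 1 replicate 2.

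Genes of the respiratory chain rose almost as a body. Of 76 nuclear genes of oxidative phosphorylation, 74 were higher and 1 was lower. Their median log2 fold change was 1.49, and 75 of the 76 did not overlap between ages. All 34 genes of complex I, the NADH dehydrogenase, were higher. With the length offset 61 were higher and 3 lower, the median was 0.72, and 33 of the complex I genes were still called. Ndufb3, a small accessory subunit of complex I, had 69.3, 57.6 and 80.5 CPM at postnatal day 1 and 268, 281 and 375 CPM at 1.5 years (log2 fold change 2.15 ± 0.17 (SE), adjusted p = 1.33e-07), and Atp5e, the ε subunit of ATP synthase, had 226, 196 and 202 CPM at postnatal day 1 and 646, 858 and 1416 CPM at 1.5 years (log2 fold change 2.22 ± 0.27 (SE), adjusted p = 1.15e-05). The log2 fold changes of 2 large subunits were smaller. Ndufs1, the largest subunit of complex I, had 335, 296 and 319.9 CPM at postnatal day 1 and 456, 475 and 480.2 CPM at 1.5 years (log2 fold change 0.57 ± 0.12 (SE), adjusted p = 0.00147), and Sdha, the flavoprotein of succinate dehydrogenase, rose from 657 to 913 CPM (log2 fold change 0.47, adjusted p = 0.0047). Neither was called with library size only (-0.029 and -0.12).

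Within complex IV, cytochrome c oxidase, the muscle forms below rose more than their paralogs, and only in the Cox6a pair was the other form called lower. Cox6a2, the heart and muscle form of subunit VIa, had 931, 591 and 735 CPM at postnatal day 1 and 3571, 4256 and 5463 CPM at 1.5 years (log2 fold change 2.56 ± 0.23 (SE), adjusted p = 5.45e-07), while the liver form Cox6a1 had 309.7, 259 and 238 CPM at postnatal day 1 and 118, 127 and 186 CPM at 1.5 years (log2 fold change -0.90 ± 0.18 (SE), adjusted p = 0.0012). Cox6a1 was the one respiratory chain gene that fell. Cox7a1, the muscle form of subunit VIIa, rose from 113 to 1136 CPM (log2 fold change 3.33 ± 0.26 (SE), adjusted p = 9.26e-08), and its ubiquitous counterpart Cox7a2 rose less (log2 fold change 0.99, adjusted p = 0.000759) and had a log2 fold change of 0.01 with the length offset. Cox8b, the muscle form of subunit VIII, rose from 178 to 1159.8 CPM (log2 fold change 2.70, adjusted p = 4.1e-07), and Cox8a was not called (263 CPM at postnatal day 1 and 195 CPM at 1.5 years; log2 fold change -0.43, adjusted p = 0.113) but was called lower with the length offset (-1.49). These are short transcripts, and the muscle forms were called higher and Cox6a1 lower with the length offset too (Cox6a2 1.60, Cox7a1 2.22, Cox8b 1.51, Cox6a1 -1.94).

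Of the 13 protein-coding genes of the mitochondrial genome, 5 were higher and 0 lower at this threshold, 2 of them with the length offset, and the median of the 13 was 1.17. Cytochrome c oxidase subunit I, mt-Co1, had 27780, 24155 and 34550 CPM at postnatal day 1 and 95482, 82723 and 67878 CPM at 1.5 years (log2 fold change 1.51 ± 0.20 (SE), adjusted p = 2.45e-05). Some of the 8 genes without a call had almost no counts, such as mt-Co3 (0.450 CPM at postnatal day 1 and 0.764 CPM at 1.5 years), and how reads shared with nuclear copies of the mitochondrial genome were counted was not tested. Of 75 mitochondrial ribosomal protein genes, 61 were higher and 0 lower, with a median of 1.03, and 39 were higher and 3 lower with the offset. Mrpl14 rose from 31.5 to 153 CPM (log2 fold change 2.28, adjusted p = 5.31e-06) and Mrpl55 from 33.2 to 141 CPM (log2 fold change 2.08, adjusted p = 2.26e-06).

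Genes of fuel uptake and oxidation changed in both directions. Of 40 genes of fatty acid uptake and oxidation, 25 were higher and 5 lower, with a median of 0.70. Lpl, which releases fatty acids from circulating lipoproteins, had 1214, 654 and 852 CPM at postnatal day 1 and 3631, 2452 and 4318 CPM at 1.5 years (log2 fold change 1.94 ± 0.24 (SE), adjusted p = 1.43e-05). Fabp3, which carries fatty acids in the cytoplasm, rose from 1006 to 2586 CPM (log2 fold change 1.36, adjusted p = 0.000122, with no call by exon union length, 0.39, adjusted p = 0.0943), and Acadm, the medium-chain dehydrogenase of β-oxidation, rose from 399 to 1157 CPM (log2 fold change 1.53, adjusted p = 5.18e-07). Cpt1a, the fetal and liver form of the carnitine transferase that admits fatty acids to mitochondria, had 113, 111 and 85.2 CPM at postnatal day 1 and 28.6, 28.5 and 20.1 CPM at 1.5 years (log2 fold change -2.0 ± 0.19 (SE), adjusted p = 9.39e-07). The muscle form Cpt1b was not called (5.75, 5.54 and 7.73 CPM at postnatal day 1 and 3.82, 7.88 and 3.62 CPM at 1.5 years; log2 fold change -0.31, adjusted p = 0.621). Cpt1b lay below Cpt1a at both ages, and how reads in overlapping genes were counted was not tested. Pdk4 (log2 fold change -0.75, adjusted p = 0.0788), which restrains glucose oxidation, was not called. Neither was Acsl1 (log2 fold change 0.19, adjusted p = 0.312), which activates fatty acids and was called higher with the length offset (0.36). Acsl3 (42.7 to 4.32 CPM) and Acsl6 (0.430 to 12.5 CPM), other activating enzymes, moved in opposite directions (log2 fold change -3.31, adjusted p = 0.0114 and log2 fold change 4.86, adjusted p = 1.04e-07).

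Of 29 genes of glucose uptake and glycolysis, 12 were higher and 3 lower, with a median of 0.30. Slc2a4, the insulin-responsive glucose transporter, had 82.8, 59.6 and 76.2 CPM at postnatal day 1 and 362, 368 and 409 CPM at 1.5 years (log2 fold change 2.38 ± 0.16 (SE), adjusted p = 1.97e-08), and Slc2a1, the fetal transporter, was not called (21.2, 20.7 and 20.1 CPM at postnatal day 1 and 17.9, 13.1 and 15.4 CPM at 1.5 years; log2 fold change -0.42, adjusted p = 0.141). Hexokinase 2 (Hk2) rose from 48.5 to 162 CPM (log2 fold change 1.74, adjusted p = 1.2e-05) and hexokinase 1 (Hk1) was not called (log2 fold change -0.38, adjusted p = 0.0834). The muscle phosphofructokinase Pfkm rose (log2 fold change 1.50, adjusted p = 5.05e-07) as the platelet form Pfkp fell (log2 fold change -1.43, adjusted p = 4.75e-05). The muscle enolase Eno3 rose (log2 fold change 1.38, adjusted p = 8.76e-05) as the ubiquitous Eno1 fell (log2 fold change -0.83, adjusted p = 0.00849). Both paralog pairs had these calls with the length offset too (Pfkm 1.44, Pfkp -1.20, Eno3 0.84, Eno1 -1.17), while the call of Eno1 was lost without day 1 replicate 1 (adjusted p = 0.0787).

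Ketone body and creatine genes held some of the largest metabolic changes. Bdh1, the first enzyme of ketone body use, had 2.96, 3.06 and 2.38 CPM at postnatal day 1 and 241, 259 and 306 CPM at 1.5 years (log2 fold change 6.58 ± 0.55 (SE), adjusted p = 2.17e-07), and Oxct1, the enzyme that commits ketone bodies to oxidation, had 191, 204 and 186 CPM at postnatal day 1 and 868, 773 and 861 CPM at 1.5 years (log2 fold change 2.11 ± 0.12 (SE), adjusted p = 7.01e-09). The mitochondrial creatine kinase Ckmt2 rose from 153 to 2053 CPM (log2 fold change 3.74 ± 0.23 (SE), adjusted p = 7.7e-09) and the brain form Ckb fell (log2 fold change -0.80, adjusted p = 0.00951, and 0.0752 without day 1 replicate 1). Mb, myoglobin, the oxygen store of muscle, had 2711, 2278 and 3547 CPM at postnatal day 1 and 17329, 20161 and 28385 CPM at 1.5 years (log2 fold change 2.95 ± 0.22 (SE), adjusted p = 5.87e-08), the largest gain in CPM of the nuclear genes tested. Of 18 genes of cholesterol synthesis and uptake, 5 were lower and 0 higher at this threshold, against 16.3% and 16% of all genes tested. Hmgcs1 was among the lower genes (log2 fold change -1.40, adjusted p = 0.00182). With the length offset 1 was higher, and 3 were lower without 1.5-year replicate 3 or day 1 replicate 2.

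Genes of the translation machinery showed paralog exchanges and one list that was not stable. Rpl3l, a striated muscle form of ribosomal protein L3 (chr17:24727820-24736143, plus strand), had 9.68, 3.2 and 5.52 CPM at postnatal day 1 and 351, 380 and 473 CPM at 1.5 years (log2 fold change 6.03 ± 0.33 (SE), adjusted p = 3.99e-09), while the ubiquitous Rpl3 fell from 279.5 to 165 CPM (log2 fold change -0.76, adjusted p = 0.0067). The elongation factor Eef1a1 had 3779, 3515 and 3521 CPM at postnatal day 1 and 1141, 1205 and 1128 CPM at 1.5 years (log2 fold change -1.64 ± 0.14 (SE), adjusted p = 3.48e-07). Eef1a2, its adult muscle and neuronal form, which was looked up after the fall of Eef1a1 was seen, rose from 297 to 1829 CPM (log2 fold change 2.62, adjusted p = 1.55e-08). Of 76 cytosolic ribosomal protein genes, 51 were higher and 1, Rpl3, lower, with a median of 0.63. With the length offset 6 were higher and 23 lower, and the first fit called 32 higher without day 1 replicate 2 and 22 without 1.5-year replicate 3, where 14.3% of all genes tested were called higher and 12.7% lower. The 51 called genes had a median position of -0.48 at 4 weeks and -0.62 at 14 weeks on a scale where 0 is the day 1 mean and 1 the 1.5-year mean, so that their levels at those ages lay below day 1.

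Among collagen and matrix genes more were called lower than higher. Of 37 collagen genes, 18 were lower and 2 higher (Col8a1 and Col5a3), with a median of -1.59. With the length offset 14 were lower and 4 higher, and the median was -1.02. The fibrillar collagens Col1a1 (462, 673 and 546 CPM at postnatal day 1 and 127, 141 and 121 CPM at 1.5 years; log2 fold change -2.11 ± 0.16 (SE), adjusted p = 9.92e-08) and Col3a1 (688, 910.2 and 871 CPM at postnatal day 1 and 249, 255 and 179.8 CPM at 1.5 years; log2 fold change -1.85 ± 0.22 (SE), adjusted p = 7.48e-06) fell without overlap, and basement membrane Col4a1 fell from 691 to 221 CPM (log2 fold change -1.64, adjusted p = 3.95e-05). Of 42 matrix processing and matricellular genes, 18 were lower and 7 higher. Elastin (Eln) had 472, 528 and 424 CPM at postnatal day 1 and 39.9, 47.5 and 40.8 CPM at 1.5 years (log2 fold change -3.47 ± 0.23 (SE), adjusted p = 2.37e-08), and fibronectin (Fn1) had 217, 378 and 206 CPM at postnatal day 1 and 27.7, 21 and 16.7 CPM at 1.5 years (log2 fold change -3.62 ± 0.27 (SE), adjusted p = 7.54e-08). Periostin (Postn), a matricellular protein of growing and injured heart, had 405, 499.6 and 629 CPM at postnatal day 1 and 61.1, 39.4 and 42.7 CPM at 1.5 years (log2 fold change -3.42 ± 0.40 (SE), adjusted p = 7.16e-06). Some genes of small leucine-rich proteoglycans, which bind collagen fibrils, were higher. Decorin (Dcn) had 144, 144 and 216 CPM at postnatal day 1 and 726, 586 and 630.5 CPM at 1.5 years (log2 fold change 1.95 ± 0.20 (SE), adjusted p = 2.36e-06), and Lum (1.42) and Prelp (2.55) rose too. Serpinh1, the collagen chaperone, was not called (log2 fold change 0.09, adjusted p = 0.682). Mmp3, stromelysin 1, had 0.0218, 0.0206 and 0.0859 CPM at postnatal day 1 and 8.62, 8.72 and 5.17 CPM at 1.5 years (log2 fold change 7.39 ± 1.31 (SE), adjusted p = 0.000394), Mmp14 fell (log2 fold change -1.17, adjusted p = 0.000111) and Mmp2 was not called (log2 fold change -0.23, adjusted p = 0.31).

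Most genes of antigen presentation were higher at 1.5 years. Of 21 antigen presentation genes, 19 were higher and 0 lower at this threshold, with a median of 3.27, and 18 were higher with the length offset. All 7 MHC class II genes were higher. H2-Ab1, the class II β chain, had 0.829, 1.23 and 1.52 CPM at postnatal day 1 and 72.9, 151 and 135 CPM at 1.5 years (log2 fold change 6.65 ± 0.40 (SE), adjusted p = 7.24e-09), H2-Aa, the α chain, had 3.42, 0.433 and 1.48 CPM at postnatal day 1 and 93.3, 160.4 and 154 CPM at 1.5 years (log2 fold change 6.26 ± 0.57 (SE), adjusted p = 5.36e-07), and Cd74, the invariant chain, had 3.33, 2.43 and 3.99 CPM at postnatal day 1 and 248, 436 and 344 CPM at 1.5 years (log2 fold change 6.72 ± 0.33 (SE), adjusted p = 1.42e-09). Every 1.5-year library exceeded every day 1 library for these genes, and replicate 1 was the lowest of the 3. Of the 14 class I genes, 12 were higher, among them H2-K1 (24.1, 20.7 and 25.9 CPM at postnatal day 1 and 189, 298 and 243 CPM at 1.5 years; log2 fold change 3.37, adjusted p = 1.48e-06) and the light chain B2m (94.0, 74.4 and 106 CPM at postnatal day 1 and 439.7, 712 and 423 CPM at 1.5 years; log2 fold change 2.52, adjusted p = 1.2e-05).

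Promoters of 2 class II genes are shown because antigen presentation had the largest median of the lists. The 150 bases before the RefSeq start of H2-Aa (chr17:34287824-34287973, minus strand) and H2-Eb1 (chr17:34305717-34305866, plus strand), with the Y box (CTGATTGG, either strand) in capitals, read as follows.
H2-Aa: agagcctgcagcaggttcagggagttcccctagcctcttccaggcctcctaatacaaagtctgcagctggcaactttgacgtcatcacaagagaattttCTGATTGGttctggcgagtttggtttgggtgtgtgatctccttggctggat
H2-Eb1: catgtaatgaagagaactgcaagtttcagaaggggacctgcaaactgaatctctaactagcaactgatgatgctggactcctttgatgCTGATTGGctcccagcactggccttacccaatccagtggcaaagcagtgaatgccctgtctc
The Y box includes a CCAAT match on the opposite strand. It was found in the windows of 2 of the 4 class II genes that rose and had an entry, which are the 2 shown. The Y box was also found in 6 of 11 class I genes, in 4.70% of all promoters and in 6.33% of the tested genes with an entry.

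Macrophage genes were higher in 20 of 24 cases and lower in 0 at this threshold, with a median of 2.23. C1qa, a complement component made by resident macrophages, had 23.4, 9.60 and 13.7 CPM at postnatal day 1 and 113, 160.2 and 188 CPM at 1.5 years (log2 fold change 3.31 ± 0.27 (SE), adjusted p = 1.86e-07), and Adgre1 (F4/80) had 6.64, 2.97 and 4.82 CPM at postnatal day 1 and 22.4, 25.1 and 17.6 CPM at 1.5 years (log2 fold change 2.17 ± 0.29 (SE), adjusted p = 2.91e-05). The markers Folr2 (0.492 to 25.9 CPM), Cd163 (0.937 to 14.8 CPM) and Lyz2 (14.8 to 248 CPM) rose, whereas Lyve1 (log2 fold change 0.52, adjusted p = 0.232) and Ccr2, the receptor of recruited monocytes (7.06, 0.381 and 1.68 CPM at 1.5 years; log2 fold change 2.00, adjusted p = 0.122), were not called. The summed level of 5 macrophage markers was 44.2 to 56.3 CPM at day 1 and 248 to 305 CPM at 1.5 years. Of 23 lymphocyte genes, 8 were higher and 0 lower at this threshold. They were the pan-leukocyte genes, immunoglobulin genes and Ccl5, while B and T cell receptor components stayed low, Cd79a at 0.0184, 0.477 and 3.01 CPM and Cd3e at 0.478, 0.778 and 1.91 CPM at 1.5 years. Ighm, the IgM heavy chain, had 2.86, 0.691 and 1.38 CPM at postnatal day 1 and 13.8, 21.6 and 22.2 CPM at 1.5 years (log2 fold change 3.54 ± 0.44 (SE), adjusted p = 1.32e-05). Ccl5, a chemokine of T and NK cells, was at 0 in all day 1 libraries and at 2.81, 6.69 and 7.34 CPM at 1.5 years, at least 176-fold higher.

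Of 25 complement and chemokine genes, 19 were higher and 0 lower at this threshold, with a median of 2.90. C4b had 0.786, 0.495 and 0.601 CPM at postnatal day 1 and 34.0, 43.0 and 24.9 CPM at 1.5 years (log2 fold change 5.76 ± 0.32 (SE), adjusted p = 4.04e-09), C3, the central complement component, had 55.8, 75.8 and 39.3 CPM at postnatal day 1 and 353, 277 and 251 CPM at 1.5 years (log2 fold change 2.37 ± 0.25 (SE), adjusted p = 2.48e-06), and Ccl8 had at most 1 count per library at day 1 and 3.11, 2.08 and 7.22 CPM at 1.5 years. C4b and Ccl8 were among the genes whose mean was far lower at 14 weeks (9.85 and 0.322 CPM) than at 1 year (45.3 and 6.33 CPM). Of 31 interferon-stimulated genes, 9 were higher and 0 lower at this threshold, with a median of 0.99. The number was 6 with the length offset and 5 without day 1 replicates 1 or 2. Bst2, which tethers budding viruses, was called higher (log2 fold change 1.05, adjusted p = 0.0118) but not with the length offset (0.11) or without 1.5-year replicate 3 (adjusted p = 0.0549). Gbp2 had 4.68, 4.73 and 7.37 CPM at postnatal day 1 and 30.6, 27.0 and 25.7 CPM at 1.5 years (log2 fold change 2.31 ± 0.30 (SE), adjusted p = 1.96e-05) and Ifit3 had 1.96, 0.948 and 5.48 CPM at postnatal day 1 and 6.62, 16.4 and 16.7 CPM at 1.5 years (log2 fold change 2.24 ± 0.61 (SE), adjusted p = 0.0096), with no call by exon union length (adjusted p = 0.0708), while Isg15 (log2 fold change 1.05, adjusted p = 0.113) and Ifit1 (log2 fold change 0.99, adjusted p = 0.486) were not called. A core of the interferon-stimulated response element (GAAA, any 2 bases and GAAA again, either strand) was found in the windows of 6 of 7 of these higher genes with an entry and in 3.99% of all promoters, and is shown in capitals in the 150 bases before the start of Bst2 (chr8:71537473-71537622, minus strand) and Ifit3 (chr19:34583379-34583528, plus strand).
Bst2: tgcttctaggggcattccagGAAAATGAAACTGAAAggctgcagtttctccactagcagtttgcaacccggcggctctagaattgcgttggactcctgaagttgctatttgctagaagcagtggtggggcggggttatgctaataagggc
Ifit3: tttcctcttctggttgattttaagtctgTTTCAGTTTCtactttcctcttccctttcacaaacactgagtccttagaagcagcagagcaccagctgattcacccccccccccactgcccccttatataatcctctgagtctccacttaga

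**Figure D4:**
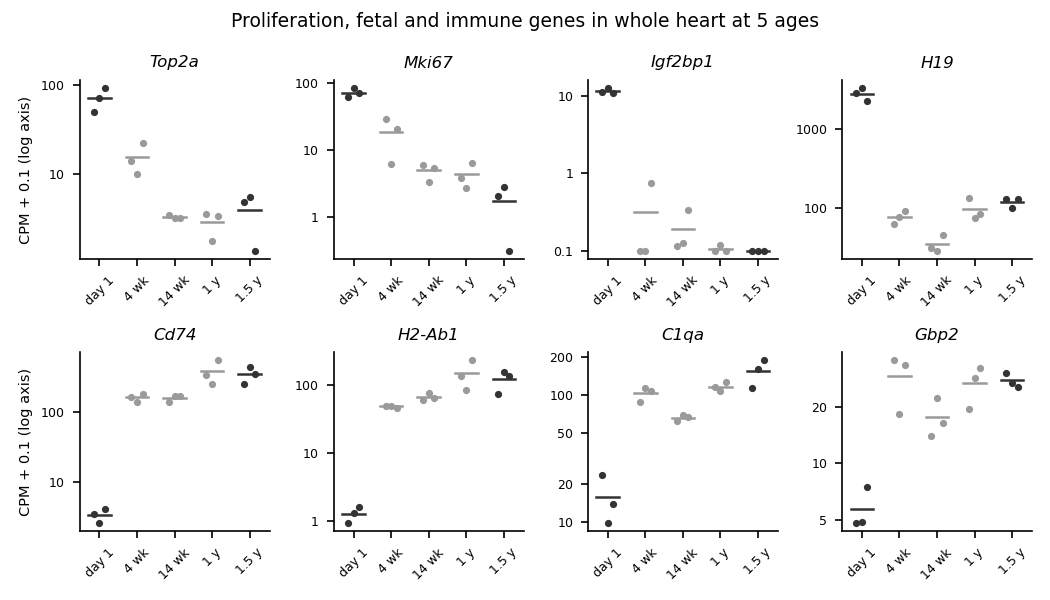
CPM plus 0.1 (y axis, log scale) of cell cycle (Top2a, Mki67), fetal (Igf2bp1, H19), antigen presentation (Cd74, H2-Ab1), macrophage (C1qa) and interferon-stimulated (Gbp2) genes in each of 3 libraries at 5 ages (x axis, bars are means; black marks postnatal day 1 and 1.5 years). The first 4 had their highest levels at day 1 and the last 4 their lowest.

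Endothelial and smooth muscle genes were called in both directions, and 16% of all genes tested were higher and 16.3% lower. Of 21 endothelial genes, 4 were higher and 5 lower, with a median of -0.03, and 3 were lower with the length offset. The number lower was also 3 without 1.5-year replicates 2 or 3 or day 1 replicate 1, and 2 without day 1 replicate 2. Pecam1, a pan-endothelial adhesion molecule, was not called (156, 153 and 106 CPM at postnatal day 1 and 151, 156 and 141 CPM at 1.5 years; log2 fold change 0.11, adjusted p = 0.672), and the level of Vwf, von Willebrand factor, rose from 56.3 to 122 CPM (log2 fold change 1.12, adjusted p = 0.00781, but 0.51 and no call with library size only). Of 13 smooth muscle, pericyte and myofibroblast genes, 3 were higher and 5 lower, and 3 were lower without 1.5-year replicate 2 and 2 without day 1 replicate 2. Acta2, smooth muscle α-actin, had 871, 886 and 508 CPM at postnatal day 1 and 130.5, 108 and 118 CPM at 1.5 years (log2 fold change -2.67 ± 0.22 (SE), adjusted p = 2.05e-07), and the pericyte gene Rgs5 had 130.2, 133 and 145 CPM at postnatal day 1 and 506, 324 and 342 CPM at 1.5 years (log2 fold change 1.52 ± 0.25 (SE), adjusted p = 0.000214). Fibroblast identity genes were higher in 9 of 15 cases and lower in 1, and 2 were lower with the length offset. The 1 lower gene had no call without 1.5-year replicate 3 or day 1 replicates 1 or 3. Pi16 had 8.48, 6.25 and 10.4 CPM at postnatal day 1 and 138, 142 and 167 CPM at 1.5 years (log2 fold change 4.15 ± 0.23 (SE), adjusted p = 4.25e-09), Ly6a rose from 7.26 to 92.2 CPM (log2 fold change 3.67, adjusted p = 2.85e-07), and Pdgfra was not called (42.7, 30.6 and 30.0 CPM at postnatal day 1 and 39.8, 34.4 and 28.6 CPM at 1.5 years; log2 fold change -0.01, adjusted p = 0.987) but was called higher with the length offset (0.59). Fibroblast identity genes were mostly higher in the same libraries in which most called collagen genes were lower. Of 9 epicardial genes, 4 were lower and 0 higher at this threshold, among them Krt19 (log2 fold change -2.17, adjusted p = 0.0244) and Tbx18 (log2 fold change -1.94, adjusted p = 0.00296), and 1 was lower without 1.5-year replicate 3 or day 1 replicate 2 and 2 without day 1 replicate 1. The call of Krt19 was lost without any library other than 1.5-year replicate 1 or day 1 replicate 3 (adjusted p = 0.0515 to 0.107). The globin genes Hba-a1 and Hbb-bs were called higher (log2 fold change 1.22, adjusted p = 0.0348 and log2 fold change 1.12, adjusted p = 0.0242), but not with the length offset or without 1.5-year replicate 2 (adjusted p = 0.164 and 0.153), the library with the highest globin counts, nor without day 1 replicates 2 or 3, and Hba-a1 was not called without 1.5-year replicate 3. Of 7 glial genes, only Sox10 was called higher (log2 fold change 4.05, adjusted p = 0.0416), and the call was lost without any library other than 1.5-year replicate 3 or day 1 replicate 3 (adjusted p = 0.0549 to 0.0956). Adipoq, the fat cell hormone, was at 0 in 2 of the 3 old libraries and at 1.83 CPM in the third. Several genes of lipid storage that heart muscle also uses rose, such as Dgat2 (66.2 to 303 CPM) and Plin5 (39.7 to 178 CPM).

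Of 26 transcription factors of heart development and metabolism, 14 were lower and 3 higher, with a median of -0.61. Gata6 had 211, 201 and 183 CPM at postnatal day 1 and 51.0, 36.4 and 38.9 CPM at 1.5 years (log2 fold change -2.24 ± 0.16 (SE), adjusted p = 3.48e-08) and Tbx20, of the T-box family, had 125, 210.1 and 218 CPM at postnatal day 1 and 54.8, 46.6 and 24.6 CPM at 1.5 years (log2 fold change -2.13 ± 0.31 (SE), adjusted p = 6.52e-05). Meis1, a factor linked to the arrest of cardiac muscle cell division, fell (log2 fold change -1.12, adjusted p = 0.00118). Ppargc1a, the coactivator of mitochondrial genes, had 127, 106 and 125 CPM at postnatal day 1 and 66.3, 19.9 and 28.0 CPM at 1.5 years (log2 fold change -1.65 ± 0.36 (SE), adjusted p = 0.00227), a fall in the same libraries in which 74 respiratory chain genes rose. Ppara, the lipid-sensing receptor, was not called (log2 fold change 0.35, adjusted p = 0.476), and the estrogen-related receptor Esrra rose (110.3 to 214 CPM; log2 fold change 0.96, adjusted p = 0.000515, with no call by library size only, 0.35). Of 43 genes of growth factor signaling, 13 were lower and 5 higher, against 16.3% and 16% of all genes tested. The number lower was 7 with the length offset, 7 without day 1 replicate 3 and 8 without day 1 replicate 2. Without 1.5-year replicate 3 or day 1 replicate 2, 3 were higher. Bmp7 had 31.7, 38.8 and 30.7 CPM at postnatal day 1 and 0.735, 0.0318 and 0 CPM at 1.5 years (log2 fold change -7.07 ± 1.00 (SE), adjusted p = 4.8e-05), the neuregulin receptors Erbb4 (14.4 to 1.10 CPM; log2 fold change -3.70, adjusted p = 0.00185) and Erbb2 (42.1 to 7.96 CPM; log2 fold change -2.40, adjusted p = 0.000197) fell, and Tgfb1 was called higher (log2 fold change 0.85, adjusted p = 0.0124), a call lost without 1.5-year replicate 3 or day 1 replicate 2 (adjusted p = 0.0525 and 0.0550). Tgfb2 was called lower (log2 fold change -1.22, adjusted p = 0.0263) but not with the length offset (-0.80) or without 1.5-year replicate 2 or day 1 replicates 2 or 3 (adjusted p = 0.0586 to 0.131).

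The largest rises among protein-coding genes that reached 10 CPM were in Retnla, 2210407C18Rik, Cpxm2, Inmt, Cxcl14, Scn4b, Ces1d, Cd74, Hrasls, H2-Ab1, Bdh1 and Gsta3. Retnla, a secreted product of alternatively activated macrophages and fat, had 0, 0 and 0.0107 CPM at postnatal day 1 and 4.56, 16.1 and 17.0 CPM at 1.5 years, at least 393-fold higher, and its mean was 58.8 CPM at 1 year. Cpxm2, a carboxypeptidase-like protein, had 0.0327, 0.0412 and 0.633 CPM at postnatal day 1 and 96.5, 87.2 and 108 CPM at 1.5 years (log2 fold change 8.68 ± 1.06 (SE), adjusted p = 1.22e-05), and Cxcl14, a chemokine, had 0.426, 0.227 and 0.279 CPM at postnatal day 1 and 52.5, 44.1 and 43.4 CPM at 1.5 years (log2 fold change 7.22 ± 0.30 (SE), adjusted p = 3.56e-10). The xenobiotic and lipid ester hydrolase Ces1d had 1.57, 0.701 and 0.794 CPM at postnatal day 1 and 100.2, 117 and 163 CPM at 1.5 years (log2 fold change 6.95 ± 0.32 (SE), adjusted p = 1.21e-09). The genes were chosen to have no overlap between the ages. Of the 4 described, Retnla varied most among the 1.5-year libraries, with replicate 1 the lowest. Among the largest falls were Igf2bp1, Esco2, Plekhh1, Fras1, Hmmr, Aspm, Igf2bp3, Adamts19, Plag1, Vash2 and Col26a1. Esco2, Hmmr and Aspm act on cohesin and the spindle. Hmmr had 27.4, 18.0 and 28.3 CPM at postnatal day 1 and 0.0184, 0 and 0.0165 CPM at 1.5 years, at least 484-fold lower. Fras1, an extracellular matrix protein of embryonic basement membranes, had 11.3, 20.7 and 13.0 CPM at postnatal day 1 and 0, 0 and 0.0165 CPM at 1.5 years, at least 295-fold lower. Among genes that do not code for protein, Plet1os (0.128 to 16.6 CPM), AW112010 (0.286 to 15.6 CPM) and 2210408F21Rik (1.05 to 41.3 CPM) rose most, and H19, Gm12940 (12.9 to 0.839 CPM) and Rian (39.7 to 3.18 CPM) fell most, the call of Gm12940 being lost without any library other than 1.5-year replicate 1 (adjusted p = 0.0556 to 0.0601).

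Most of the genes that rose were nearer to their 1.5-year than to their day 1 mean by 4 weeks. The share of genes whose 4-week mean was nearer to the 1.5-year than to the day 1 mean (log2 of CPM plus 0.1) was 66.2% of the 2727 higher genes and 46.3% of the 2781 lower genes. At 14 weeks the shares were 73.2% and 57.1%, and at 1 year 80.3% and 58.0%. The path was often not steady, as 1416 higher and 1207 lower genes lay outside the range of the 2 means at an age in between. The end points were chosen by the same contrast, so the shares are a description. Sex-linked genes differed between the adult ages too. All libraries at 14 weeks and 1 year had little Xist (0.125 to 0.570 CPM) and much Ddx3y (35.5 to 99.0 CPM), the reverse of 1.5 years. At 4 weeks the libraries varied (Xist 6.48 to 140 CPM, Ddx3y 1.64 to 33.9 CPM). Sex and age therefore cannot be told apart in these steps. The transcript length trend also differed between ages, and the positions carry it. Against the day 1 mean, the coefficient with length was -0.20 to 0.09 in the libraries at 4 weeks, -0.05 to -0.01 at 14 weeks, -0.23 to -0.07 at 1 year and -0.44 to -0.26 at 1.5 years, and how far it set the timing of lists of short transcripts was not tested. On the scale from 0 at day 1 to 1 at 1.5 years, the 45 cell cycle genes that fell had a median of 0.71 at 4 weeks and 1.08 at 14 weeks, and the 12 imprinted genes had 0.76 and 1.05. The 18 collagen genes that fell lay at 0.40 at 4 weeks and 1.00 at 14 weeks. For the 74 respiratory chain genes that rose, the medians were 0.55, 0.54 and 0.70 at 4 weeks, 14 weeks and 1 year, and for the 61 mitochondrial ribosomal genes 0.47, 0.51 and 0.57. The 19 antigen presentation genes were at 0.85, 0.73 and 1.02, and the 19 complement and chemokine genes at 0.59, 0.67 and 1.03.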

How the data were processed

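Whole heart RNA was extracted from mice of 5 ages, and polyA libraries were sequenced as single reads. The deposited values were raw counts per gene, which the authors made by aligning reads to mm10 with STAR 2.5.3a and its gene count option (per the labels and the study's methods). The strand column kept from that option was not given in the sources used here, so reads of overlapping and antisense genes may not be told apart. The heart count table held 22855 genes and 0 columns without a sample.

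All 15 whole heart samples entered 1 model with age as a factor, so that the 5 ages shared 1 estimate of the spread. Groups came from the sample labels. Genes were kept by edgeR's filterByExpr, libraries were scaled by TMM, and 1.5 years was compared with postnatal day 1 by edgeR's quasi-likelihood F test (edgeR 4.0.16, R 4.3.3). P-values were adjusted by Benjamini-Hochberg over the 17995 genes tested, with 0.05 as the threshold. Genes on chromosomes X and Y and genes without a chromosome were then left out. The SE of a log2 value was back-calculated from that value and its F statistic, so it is approximate. CPM used the TMM-scaled library sizes. The number of libraries per age limits the precision.

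Transcript length, GC content and coordinates came from GENCODE M21 (GRCm38), to which 95.4% of symbols matched directly. The length offset was a lowess smooth (span 0.3) of each library's log2 deviation on log2 length, drawn through genes with a mean of at least 1 CPM. A floor of 3 counts per library gave the lower bounds of folds against 0. Promoters were RefSeq sequences. The alternatives were DESeq2 1.42.0, other scalings and filters, GC and exon union length offsets, a fit of only the 2 ages, a replicate block and leaving out each library. The scripts were tested on simulated data with 200 changed genes. Of 2-fold changes, edgeR recovered 23% and DESeq2 43%, and of 4-fold changes 71.5% and 81%. False calls were 2.13% of the edgeR and 44.5% of the DESeq2 calls at 2-fold. With no gene changed, edgeR called 0 genes and DESeq2 43. A gene without a call may therefore still differ by 2-fold.

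Members and gene lists were chosen with earlier results of these data known, and support no result by themselves. Genes named in the text were the 12 largest rises and 12 largest falls among called protein-coding genes with no overlap and at least 10 CPM at the higher age, the 4 largest gains and losses in CPM, the 3 largest rises and falls among other genes, key genes of each list, and up to 2 further members of a list. Another 20 genes were named after their values were seen, namely Bst2, Col5a3, Col8a1, Cox8a, Eef1a2, Eno1, Erbb2, Esrra, Impact, Krt19, Lum, Myl3, Ndn, Pcna, Rpl3, Sox10, Tcap, Tgfb1, Ung and mt-Co3. Fibroblast libraries were not used here. Some named genes are not reported here.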

Additional observations from a re-analysis of the deposited data

How the results depend on the processing

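Between 4085 and 6512 genes were called in all under the settings tried without a fold threshold, except that scaling by library size only called 7028 (1336 higher and 5692 lower). A 2-fold threshold left 3694 (1783 higher and 1911 lower). DESeq2 called 3257 genes higher and 3255 lower of 16653 genes with an adjusted p, and edgeR on only the 2 ages called 2209 and 2234. Leaving out 1 library gave 2291 to 2709 higher genes, and 1794 (without day 1 replicate 2) to 2979 (without 1.5-year replicate 1) lower genes. The correlation of fold change with transcript length stayed between -0.34 and -0.44 when a library was left out and was -0.39 with exon union length. The mitochondrial share differed by 9.05 percentage points, and by 6.42 to 10.4 with a library left out. With a replicate block edgeR called 2568 higher and 2610 lower, and with replicate block and length offset 2268 and 2234. Replicate numbers did not pair the samples (r = -0.07, 0.03 and -0.04 over 13236 genes).

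Of the 295 genes named or listed as key, 20 changed sign with library size only, and 9 of these had a call in 1 or both of the fits, namely Tnnt2 (-0.080), Mybpc3 (-0.42), Ndufs1 (-0.029), Sdha (-0.12), Atp5a1 (-0.011), Acsl1 (-0.40), Mlycd (-0.10), Pkm (-0.20) and Serpinh1 (-0.51). With the length offset, the length and GC offset, and the replicate block with length offset, the values were -0.20, -0.26 and -0.20 for Tnnt2, 0.81, 0.87 and 0.81 for Ttn, 0.57, 0.57 and 0.58 for Ryr2, and 0.59, 0.63 and 0.61 for Pdgfra. With exon union length they were 1.05 for Ttn, 0.67 for Ryr2 and -0.36 for Serpinh1. Cox7a2 was at -0.038 with the length and GC offset. The cause of these changes was not tested beyond the terms each setting removes. Precision was limited by 3 libraries an age and by the spread of 1.5-year replicate 3.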

Other observations

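Circadian clock genes, which cycle over the day in the heart, had wide differences in mean level among the adult ages for some members. Of 19 clock genes tested, 2 were higher and 5 lower at 1.5 years than at postnatal day 1 by edgeR's quasi-likelihood test. Over all genes tested, 16% were higher and 16.3% lower. Without day 1 replicates 1 or 2, 3 clock genes were lower. Arntl, the activator of the clock, had 7.54, 6.90 and 6.80 CPM at postnatal day 1 and 27.5, 34.0 and 21.1 CPM at 1.5 years (log2 fold change 1.96 ± 0.40 (SE), adjusted p = 0.0012), but its mean was 1.13 CPM at 1 year against 23.5 CPM at 4 weeks and 22.1 CPM at 14 weeks. Dbp, an output gene of the opposite phase, had a mean of 121 CPM at 1 year against 28.2 CPM at postnatal day 1 and 16.2 CPM at 1.5 years. The repressors Per1 (120, 83.3 and 56.8 CPM at postnatal day 1 and 8.37, 18.7 and 14.8 CPM at 1.5 years; log2 fold change -2.64, adjusted p = 7.4e-06) and Per3 (21, 21.9 and 24.1 CPM at postnatal day 1 and 6.75, 3.65 and 1.33 CPM at 1.5 years; log2 fold change -2.52, adjusted p = 0.000862) were lower at 1.5 years with no overlap. The labels gave no time of day.

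Immediate early and heat shock genes, which respond within minutes to stress or handling, varied between the 1.5-year libraries. Of 27 such genes, 8 were higher and 2 lower, and the number of higher genes was between 5 and 13 with other settings. Fos had 5.59, 6.21 and 7.14 CPM at postnatal day 1 and 66.4, 6.05 and 2.45 CPM at 1.5 years, so that replicate 1 alone lay above day 1, and it was not called (log2 fold change 1.98, adjusted p = 0.0778). Junb had 10.1, 11.9 and 12 CPM at postnatal day 1 and 58.7, 27.3 and 26.5 CPM at 1.5 years, with no overlap (log2 fold change 1.73 ± 0.40 (SE), adjusted p = 0.0036), and replicate 1 was again the highest.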
